A study of Mus musculus with 8 samples.

Results

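The 7 genes followed here mark the alveolar type I cell and were measured in the lungs of Scgb3a2-transgenic and wild-type mice, namely Pdpn, Ager, Hopx, Emp2, Clic5, Cav1 and Akap5. The members were the probes that carry one of these 7 symbols in the annotated matrix, which are 9 probes of 41174 on the array and 7 gene symbols of 20920. All 9 probes were well above background in the lung channel on 8 of 8 arrays, and all 9 passed the filter under which 32653 probes were tested.

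Whole lungs of 4 wild-type mice were compared with those of 4 Scgb3a2-transgenic mice, all C57BL/6 males aged 8 to 10 weeks by the labels, and neither group was treated. The transgene places the mouse Scgb3a2 coding sequence behind the human surfactant protein C promoter, a promoter of the alveolar type II cell, and the study describes 1 founder with high expression in the lung. Each array carried the RNA of 1 lung in Cy5 and, in Cy3, a pool to which every lung gave the same amount of RNA. No array had the dyes swapped, so a dye effect on a ratio cannot be told apart from the difference between a lung and the pool, while it cancels in the difference between the genotypes. Every value below is a log2 ratio of lung over pool unless it is called a difference or a signal, and a ratio says nothing of one gene's level against another's.

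Type I cells are the thin, wide cells that cover most of the gas-exchange surface of the lung, and they lie against the capillary endothelium across a shared basement membrane. Type II cells, which make surfactant and are the cells that the transgene's promoter addresses, are the progenitors of type I cells in the adult lung. Podoplanin (Pdpn) and the receptor for advanced glycation end products (Ager, or RAGE) are the classical surface markers of the type I cell, Hopx is a homeodomain protein without DNA binding of its own, and Emp2, Clic5, Cav1 and Akap5 serve its membrane and cytoskeleton. In RNA of a whole lung, fewer type I cells and less RNA per type I cell cannot be told apart.

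The arrays lay on 4 slides, each with 1 wild-type and 1 transgenic lung, that were scanned on 2 days. Median Cy5 signals ran from 204 to 277.5, saturation was not seen on any array, and 1.72% to 6.46% of spots were left out for an outlier flag. Transgenic lung 1 stood apart from the other lungs, with a median correlation of its log2 ratios with those of the other 7 arrays of 0.722, against 0.760 to 0.810 for the others. Scgb3a2, the transgene's gene, was 0.88 higher in the transgenic lungs (SE 0.24, two-sided exact permutation p = 0.0571, limma adjusted p = 1), with transgenic ratios from 0.47 to 1.26 and wild-type ratios from -0.56 to 0.58.

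No member passed the test between the genotypes. None of the 9 probes passed an adjusted p of 0.05, as did none of all probes tested (percent called: 0), and none had an unadjusted p under 0.05, which 684 of the 32653 probes (2.09%; 1.12% higher and 0.974% lower) had. The wild-type and transgenic values of all 9 probes overlapped, whereas 1.97% of all probes tested showed no overlap. By sign, the difference was negative for 6 of the 9 probes, against 49.6% of all probes, and the median over the brightest probe of each gene was -0.10, against 0.00098 over all probes.

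The members varied between single lungs, and 1 lung stood out. In transgenic lung 1 the ratio was the lowest of the measured lungs for 8 of the 9 probes. Of the 9 probes, 6 had a value in all 8 lungs, and transgenic lung 1 was the lowest for 6 of 6 such member probes, a rank it held for 18.4% of all probes with a value in all lungs. Deviations from each gene's mean were averaged over those of the 7 genes with a value in the lung. Transgenic lung 1 stood at -0.64 (7 genes) and the wild-type lungs between 0.0066 and 0.084 (6, 5, 7 and 7 genes). The other transgenic lungs stood at 0.086, 0.062 and 0.38 (6, 6 and 7 genes). The means of different lungs thus do not all rest on the same genes. Transgenic lung 4 gave the highest value for 5 of the 9 probes and for 3 of the 6 with a value in all lungs, a rank it held for 11.5% of all probes with a value in all lungs.

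**Figure D1:**
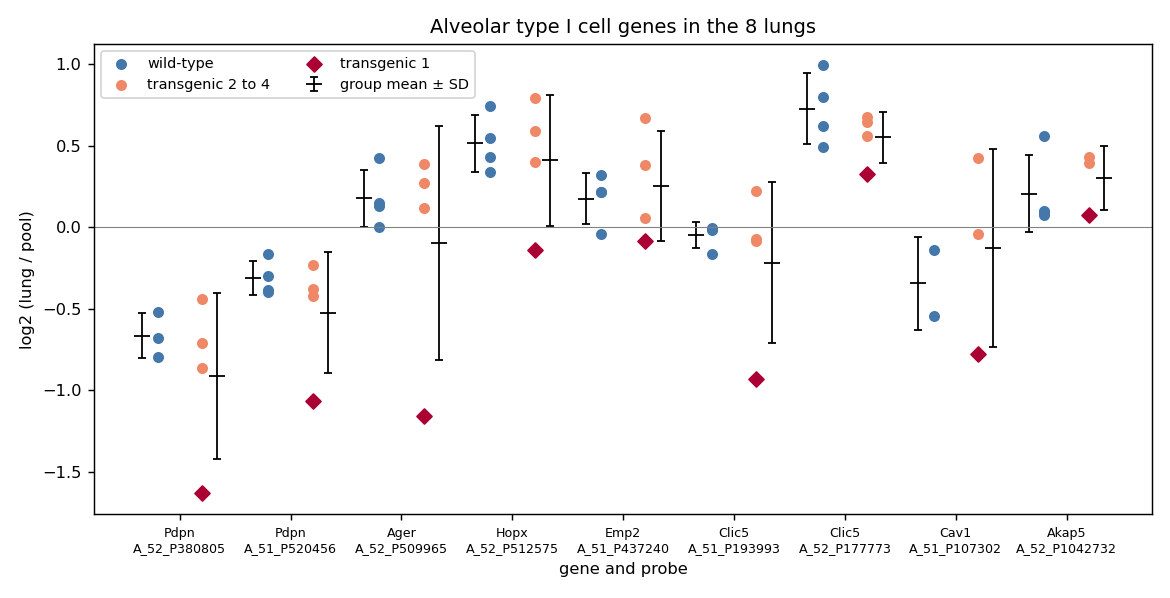
Log2 ratio of lung over pool (vertical axis) for the 9 probes of the 7 genes (horizontal axis), with 1 point per lung and the mean ± SD of each genotype beside it; missing points are spots left out for an outlier flag. Transgenic lung 1 (diamonds) lies below every other lung for 8 of the 9 probes, and the other transgenic lungs lie among or above the wild-type lungs for most of them.

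The 5′ sequences of the 4 genes that lay furthest below the other lungs in transgenic lung 1 are given here, since their ratios set that lung apart. RefSeq start sites on GRCm38.p6 matched 7 of the 7 genes and gave 9 windows of 300 bases, from 250 bases before a start to 50 after it, with 2 windows each for Hopx and Cav1. Capitals mark a GC box (GGGCGG) or the core letters bound by NKX2-1 (CAAGTG), each read on both strands. The first is Ager at chr17:34597600-34597899 on the plus strand, then Pdpn at chr4:143299515-143299814 on the minus strand, Clic5 at chr17:44188322-44188621 on the plus strand and the second window of Hopx at chr5:77095218-77095517 on the minus strand, all written 5′ to 3′ on the gene's strand.
Ager: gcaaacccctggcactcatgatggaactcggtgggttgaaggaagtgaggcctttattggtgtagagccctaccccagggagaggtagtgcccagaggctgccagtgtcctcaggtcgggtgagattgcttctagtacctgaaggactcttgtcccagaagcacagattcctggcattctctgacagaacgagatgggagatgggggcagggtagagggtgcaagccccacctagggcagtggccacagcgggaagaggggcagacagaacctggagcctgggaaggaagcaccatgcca
Pdpn: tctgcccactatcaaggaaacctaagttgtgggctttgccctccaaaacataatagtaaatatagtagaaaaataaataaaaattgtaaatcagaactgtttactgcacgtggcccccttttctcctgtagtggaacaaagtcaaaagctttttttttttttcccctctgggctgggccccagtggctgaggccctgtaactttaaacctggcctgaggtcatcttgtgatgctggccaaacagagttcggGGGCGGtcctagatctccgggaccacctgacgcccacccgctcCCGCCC
Clic5: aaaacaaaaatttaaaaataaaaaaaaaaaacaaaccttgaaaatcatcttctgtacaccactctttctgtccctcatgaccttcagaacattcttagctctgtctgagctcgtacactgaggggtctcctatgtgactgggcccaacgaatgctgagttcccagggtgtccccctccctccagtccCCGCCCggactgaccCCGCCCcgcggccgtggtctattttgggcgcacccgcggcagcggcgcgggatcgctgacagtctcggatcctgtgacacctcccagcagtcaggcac
Hopx: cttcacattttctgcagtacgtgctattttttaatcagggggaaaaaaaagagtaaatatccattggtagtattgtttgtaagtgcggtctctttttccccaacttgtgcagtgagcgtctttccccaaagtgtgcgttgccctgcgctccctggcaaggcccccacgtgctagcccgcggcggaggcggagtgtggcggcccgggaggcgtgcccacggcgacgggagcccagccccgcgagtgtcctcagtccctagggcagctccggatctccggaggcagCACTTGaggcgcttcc

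The GC box stood in 5 of the 9 windows, those of Pdpn, Clic5, Emp2 and Akap5 and the first of Cav1, and in 35.7% of the 32851 promoter windows of the reference table. The letters CAAGTG stood in 1 window, the second of Hopx, 35 bases into the transcript, and in 13.6% of all windows. The letters GGAATG of the TEAD factors, the partners of YAP and TAZ, stood in none of the 9 windows and in 14.7% of all, and TATAAA stood in the first window of Cav1 and in 13.6% of all. The Ager window, the first Hopx window, which is not printed, and the second Cav1 window held none of these 4 motifs. The GC content of the Ager window, 58.3%, compares with a median of 52.7% over all windows. A match describes the letters of a window and is not evidence of binding.

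Ager codes for RAGE, a pattern recognition receptor of the immunoglobulin family that is abundant in type I cells. Its ratio was 0.0012, 0.42, 0.13 and 0.15 in wild-type lungs 1 to 4 and -1.16, 0.12, 0.27 and 0.39 in transgenic lungs 1 to 4. The other 7 lungs of both genotypes were mixed, and transgenic lung 1 lay below all of them. The difference between the genotypes was -0.27 (SE 0.28, exact permutation p = 0.714, limma adjusted p = 1), with a 95% interval of the fold from 0.539 to 1.27. Without transgenic lung 1 it turned to 0.083 (95% interval -0.19 to 0.36). Transgenic lung 1 was 1.31 below the median of the other lungs, which put Ager at percentile 0.049 of all tested probes by that measure. Ager was the only one of the 9 probes at least 2-fold below the other lungs, as were 0.166% of all probes.

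The low ratio was a low signal of the lung and not a high signal of the pool. The raw Cy5 signal of Ager was 11410 in transgenic lung 1 and 29234 to 68746 in the other lungs, while the Cy3 signal of the pool on the same array, 38370, lay within its range of 28800.5 to 50572 on the other arrays. The same held for Pdpn, with a Cy5 signal of 681.5 against 1350 to 2575.5 and a pool signal of 2999 against 2276 to 3559. For Clic5 the Cy5 signal was 846 against 1512 to 3438, and for Hopx it was 10907 against 15865 to 39787.5.

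**Figure D2:**
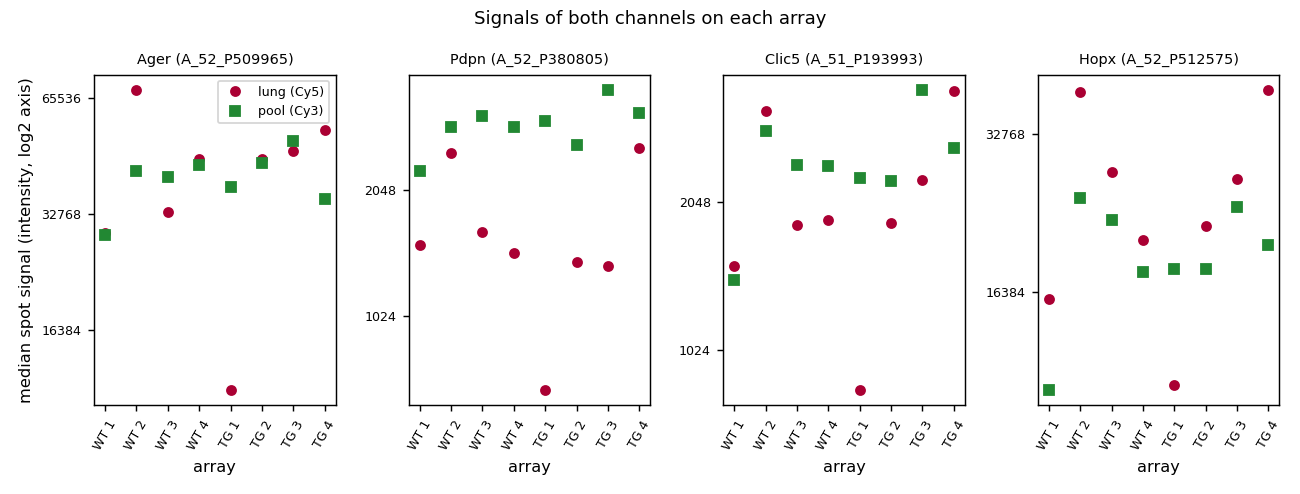
Median spot signal before any correction (vertical axis, log2 scale) on each of the 8 arrays (horizontal axis; WT, wild-type; TG, transgenic) for Ager, Pdpn, Clic5 and Hopx, with circles for the lung in Cy5 and squares for the pool in Cy3. On the array of transgenic lung 1 the circle is the lowest of the 8 in every panel and the square lies within the range of the other arrays.

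Podoplanin is a mucin-like membrane glycoprotein that reaches the actin cytoskeleton through ezrin, radixin and moesin, and it was read by 2 probes. On the brighter probe, A_52_P380805, the ratio was -0.68, -0.52 and -0.79 in wild-type lungs 1, 3 and 4, with the spot of wild-type lung 2 left out for its flag, and -1.63, -0.71, -0.86 and -0.44 in transgenic lungs 1 to 4. Transgenic lung 1 was the lowest and the other lungs of both genotypes were mixed. On the dimmer probe, A_51_P520456, the wild-type values were -0.30, -0.17, -0.38 and -0.40 and the transgenic values -1.07, -0.38, -0.42 and -0.23, with the same lung lowest. The differences were -0.25 (SE 0.24, exact permutation p = 0.6) and -0.21 (SE 0.16, exact permutation p = 0.371). Without transgenic lung 1 they were -0.0058 and -0.032. Lymphatic endothelium and mesothelium also make podoplanin, and in transgenic lung 1 the mean deviation of 6 lymphatic endothelial genes was 0.12, against -0.14 to 0.072 in the other lungs, and that of 4 mesothelial genes was 0.016, against -0.37 to 0.50.

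Hopx, which acts on transcription through other proteins, had ratios of 0.55, 0.43, 0.74 and 0.34 in the wild-type and -0.14, 0.40, 0.59 and 0.80 in the transgenic lungs. Transgenic lung 1 was again the lowest and was the only lung below the pool, and transgenic lung 4 was the highest. The difference was -0.10 (SE 0.18, exact permutation p = 0.771), and it was 0.082 without transgenic lung 1.

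Clic5 codes for a chloride intracellular channel protein that associates with actin and ezrin. On its brighter probe, A_51_P193993, the wild-type lungs lay close together at -0.016, -0.0085, -0.0025 and -0.16, and the transgenic lungs were at -0.93, -0.074, -0.084 and 0.22. Transgenic lungs 1 and 4 were the lowest and the highest of all. On the dimmer probe, A_52_P177773, the ratios were 0.99, 0.62, 0.80 and 0.49 in the wild-type and 0.32, 0.68, 0.56 and 0.64 in the transgenic lungs, with transgenic lung 1 the lowest and wild-type lung 1 the highest. The differences of the probes were -0.17 (SE 0.20, exact permutation p = 0.743) and -0.18 (SE 0.13, exact permutation p = 0.286), and 0.069 and -0.10 without transgenic lung 1. Transgenic lung 1 lay 0.91 below the median of the other lungs on the brighter probe and 0.32 below it on the dimmer, so the probes differed in how far they set this lung apart.

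Emp2, a tetraspan protein of the PMP22 family, had ratios of 0.22, 0.32, -0.044 and 0.22 in the wild-type and -0.084, 0.38, 0.055 and 0.67 in the transgenic lungs. Transgenic lung 1 was the lowest by a small step, with wild-type lung 3 just above it. The difference was 0.079 (SE 0.16, exact permutation p = 0.686), with a 95% interval of the fold from 0.828 to 1.35, and it was 0.19 without transgenic lung 1.

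Caveolin-1 (Cav1) forms the coat of caveolae and is abundant in both type I cells and endothelium. It was the least well measured member, since 3 of its 8 spots were left out for outlier flags. The remaining values were -0.54 and -0.14 in wild-type lungs 3 and 4 and -0.78, -0.038 and 0.43 in transgenic lungs 1, 3 and 4, so the lowest and the highest lung were both transgenic. The difference was 0.21 (SE 0.31, exact permutation p = 0.7) and its 95% interval of the fold, 0.703 to 1.91, was the widest of the 9 in log2 units. Without transgenic lung 1, with 2 lungs left in each genotype, the difference was 0.54 with a 95% interval from 0.047 to 1.03, and no member passed an adjusted p of 0.05 there either. With the flagged spots kept the values of wild-type lungs 1 and 2 and transgenic lung 2 were 0.025, 0.35 and -0.15 and the difference was -0.062, so the sign of Cav1 rested on the flags. The mean deviation of 9 blood endothelial genes was 0.11 in transgenic lung 1, between -0.51 and 0.25 in the others.

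Akap5 anchors protein kinase A and calcineurin near the membrane. Its ratio was 0.075, 0.092, 0.098 and 0.56 in the wild-type and 0.076, 0.43 and 0.40 in transgenic lungs 1, 2 and 4, with the spot of transgenic lung 3 left out. Akap5 was the only one of the 9 probes for which transgenic lung 1 was not the lowest, although wild-type lungs 1 to 3 lay next to it. The difference was 0.095 (SE 0.15, exact permutation p = 0.6), and 0.21 without transgenic lung 1.

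**Figure D3:**
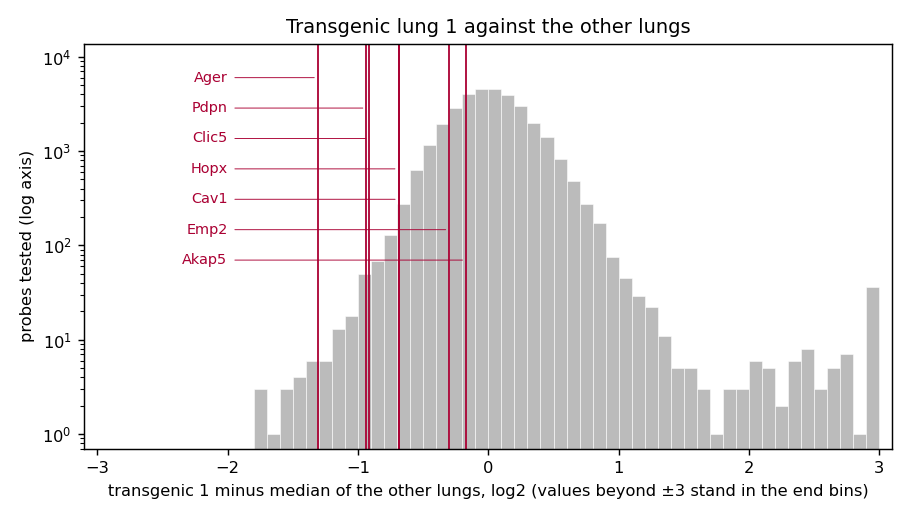
Distribution over the tested probes (vertical axis, number of probes on a log scale) of the log2 ratio in transgenic lung 1 minus the median of the other lungs (horizontal axis), with a line for the brightest probe of each of the 7 genes. Ager (-1.31), Pdpn (-0.94) and Clic5 (-0.91) stand in the far lower tail, Hopx and Cav1 (-0.69 each) within it, and Emp2 (-0.30) and Akap5 (-0.17) in the body of the distribution.

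The low rank of transgenic lung 1 was seen under other ways of scaling. It was the lowest lung for 8 of the 9 probes with Agilent's processed signals and in the authors' matrix, which holds the same processed ratios, with no normexp offset and with the Cy5 channel alone, for 9 of 9 with the arrays centered on their median in place of loess, and for 7 of 9 with flagged spots kept or with normexp fitted on all spots. All probes of Ager, Pdpn, Clic5, Hopx and Cav1 were lowest in this lung in each of these, and the exceptions were Emp2 and Akap5.

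Exact permutation of the genotypes, two-sided, gave p from 0.286 to 0.771 over the 9 probes, where 4 against 4 lungs allow 0.0286 at least and the 5 values of Cav1 allow 0.1. Once transgenic lung 1 was left out, 3 of the 9 differences changed sign, those of Ager, Hopx and the brighter Clic5 probe. The slides scanned on day 1, which hold transgenic lungs 1 and 4, gave differences of -0.45 for Ager, -0.44 for Pdpn and -0.34 for Clic5, and the slides of day 2 gave -0.092, 0.0087 and 0.0065. On the slide with transgenic lung 1 the difference was -1.16 for Ager, -0.95 for Pdpn and -0.91 for Clic5, against -0.31 to 0.26, -0.068 to 0.077 and -0.066 to 0.22 on the other slides.

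**Figure D4:**
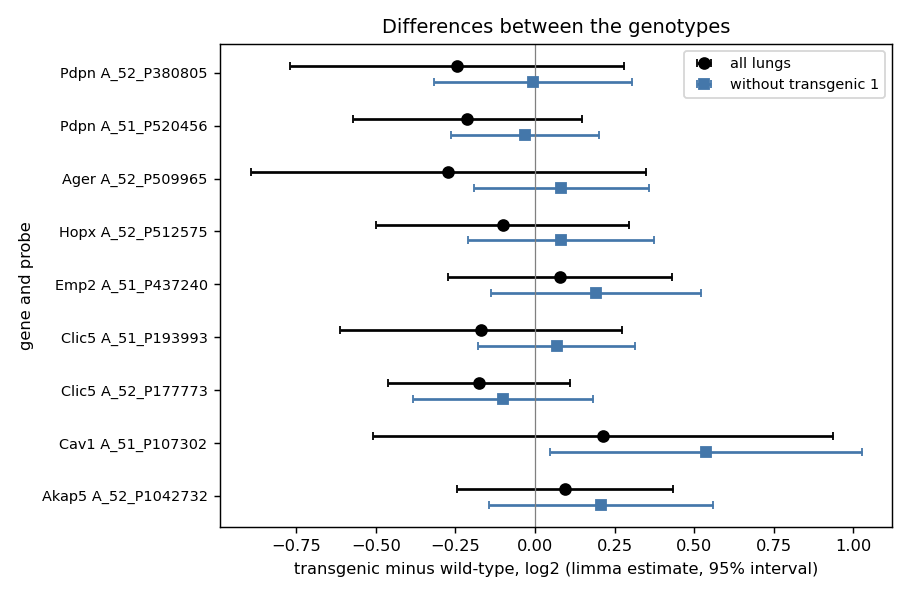
Difference of the transgenic from the wild-type lungs on the log2 scale (horizontal axis) for the 9 probes (vertical axis), as limma's estimate with its 95% interval, with circles for all lungs and squares without transgenic lung 1. All intervals of the circles include 0, and the squares of Ager, Hopx and Clic5 probe A_51_P193993 lie on the other side of 0 from their circles.

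The spread within the genotypes showed the same lung. For Ager the SD was 0.178 among the wild-type lungs (n = 4) and 0.718 among the transgenic lungs (n = 4), and 0.137 among transgenic lungs 2 to 4. For Clic5 probe A_51_P193993 these values were 0.077, 0.495 and 0.174, and for the brighter Pdpn probe 0.138, 0.510 and 0.212. For Akap5 and the dimmer Clic5 probe the SD among the transgenic lungs, 0.196 and 0.159, was no larger than among the wild-type lungs, 0.237 and 0.218. Over all lungs the SD of Ager, 0.505, was at percentile 98.9 of the probes tested and that of Akap5, 0.209, at percentile 65.5.

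The members varied together from lung to lung to different degrees. Of the 15 pairs of the 6 genes with enough values, all 15 had a positive Pearson correlation over 6 to 8 lungs, with r from 0.13 to 0.98 and a median of 0.59. Pdpn and Clic5 were the closest, with r = 0.98 (exact permutation p = 0.00179, adjusted p = 0.0134) and Spearman's rho = 0.96 (exact permutation p = 0.00278, adjusted p = 0.0417) over 7 lungs, r = 0.73 without the 2 lungs farthest from the median of Pdpn and r = 0.85 without transgenic lung 1. Hopx and Clic5 had r = 0.93 (exact permutation p = 0.00164, adjusted p = 0.0134) and rho = 0.83 (exact permutation p = 0.0154, adjusted p = 0.115) over 8 lungs, and r = 0.61 without the 2 farthest. Pdpn and Hopx had r = 0.94 (exact permutation p = 0.00655, adjusted p = 0.0327) and rho = 0.79 (exact permutation p = 0.048, adjusted p = 0.24) over 7 lungs, and r = 0.57 without the 2 farthest. These 3 pairs were the ones with an adjusted Pearson p under 0.05, and the number of such pairs was 0 without transgenic lung 1, without transgenic lung 4, with processed signals and with the mean over a gene's probes.

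The correlations of Ager were lower without transgenic lung 1, and whether they differ from those of the other pairs was not tested. Its correlation with Pdpn was 0.93 (exact permutation p = 0.0429, adjusted p = 0.107; rho = 0.39, exact permutation p = 0.396, adjusted p = 0.593; r = -0.53 without the 2 farthest lungs) and was 0.28 without transgenic lung 1. The pair of Ager and Clic5 went from r = 0.95 (exact permutation p = 0.0209, adjusted p = 0.0782; rho = 0.50, exact permutation p = 0.216, adjusted p = 0.456; r = 0.57 without the 2 farthest) to 0.48. Without transgenic lung 1, 12 of the 14 pairs with a value had a positive r, with a median of 0.43. The pairs of Akap5 had the lowest correlations with Hopx, at 0.13, and Clic5, at 0.29. Each array has its own hybridization of the shared pool, and the scan days, with 4 arrays each, were too small for values of their own.

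The 2 probes of Pdpn gave r = 0.97 over 7 lungs (exact permutation p = 0.0101, adjusted p = 0.0202; rho = 0.89, exact permutation p = 0.0123, adjusted p = 0.0246), which was 0.38 without the 2 farthest lungs and so rested on those. The 2 probes of Clic5 gave r = 0.66 over 8 lungs (exact permutation p = 0.0987, adjusted p = 0.0987; rho = 0.69, exact permutation p = 0.0694, adjusted p = 0.0694) and 0.71 without the 2 farthest. A further probe each of Clic5 and Cav1, named by transcript accession and not in the matrix under that symbol, was left out for flags on 8 and 7 of the 8 arrays.

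Of the 16196 genes outside the 7 that were unflagged and well above background on all arrays, those whose pattern over the 8 lungs was most like the mean of the members were Mospd2 (r = 0.979), Atf7 (r = 0.978), Adamtsl4 (r = 0.965), Nck1 (r = 0.961) and Trak1 (r = 0.958). These are descriptions over 8 arrays, and 75 genes had an r over 0.9. Each of the 5 was lowest in transgenic lung 1 and highest in transgenic lung 4, as in Mospd2 with -0.70 and 0.13 and between -0.27 and -0.10 elsewhere. These lungs are also the extremes of the member mean, so the choice by likeness largely set this ranking. That mean leaves out members without a value in a lung. Mospd2 is a membrane protein of contact sites with the endoplasmic reticulum, Atf7 a leucine zipper factor, Nck1 an adaptor of actin signaling and Trak1 an adaptor of mitochondrial transport.

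Other genes linked with the type I cell were read from a list of 22 companions, of which 21 were on the array and 17 were tested. None passed the adjusted threshold, and 16 of the 17 had a negative difference, with a median of -0.10, which became -0.016 without transgenic lung 1 and turned to 0.029 without wild-type lung 3. Cyp2b10, a cytochrome P450, was the single companion with an unadjusted p under 0.05 over all lungs. It was also the furthest down there, at -0.54 (SE 0.24, exact permutation p = 0.143, limma adjusted p = 1). With the slide as a block Lmo7 was at -0.59, a value from 1 slide, the only one with both genotypes measured. The ratios of Cyp2b10 were 0.72, 0.50, 1.16 and 0.093 in the wild-type and -0.52, 0.14, 0.38 and 0.32 in the transgenic lungs, so transgenic lung 1 was the lowest and the groups overlapped. Sema3a, a secreted guidance protein, was the single companion above 0, at 0.043 (SE 0.29).

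Transgenic lung 1 was the lowest of the measured lungs for 10 of the 17 companions. Chosen after their values were seen, Pxdc1 (-1.39), Timp3 (-0.95), a matrix metalloproteinase inhibitor, Col4a3 (-0.94), a chain of basement membrane collagen IV, and Sema3a (-0.91) were the furthest below the median of the other lungs there, together with Cyp2b10 (-0.90). Col4a4, which pairs with Col4a3 in the same collagen network, was 0.080 above the median, and Sec14l3, a lipid transfer protein, was the furthest above it, by 0.29. Rtkn2, another marker of type I cells, was 0.42 below, with a difference between the genotypes of -0.013.

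Among the 10 tested of 12 regulators linked with the type I cell, 9 had a negative difference and the median was -0.077, and -0.0047 without transgenic lung 1. Klf5, a zinc finger factor of the alveolar epithelium, was the single regulator with an unadjusted p under 0.05 over all lungs. With the slide as a block Ankrd1 was another, and the share of all probes under that p with this block is not given. The ratios of Klf5 were 0.15, 0.27, 0.36 and 0.15 in the wild-type and -0.21, -0.11 and -0.029 in transgenic lungs 1, 2 and 4, with transgenic lung 3 left out for its flag. The groups did not overlap, as was the case for 1.97% of all probes tested. The difference was -0.35 (SE 0.11, exact permutation p = 0.0286, which is the smallest that 4 against 3 allow, limma adjusted p = 1), and -0.31 without transgenic lung 1. Ankrd1, a target of YAP and TAZ, had the largest negative difference, -0.36 (SE 0.18, limma adjusted p = 1), with transgenic lung 1 at -1.55 the lowest and differences between -0.68 and -0.048 on the 4 slides, and Srf the only positive one, 0.10 (SE 0.092). Yap1 itself was lowest in transgenic lung 1 at -0.57, against -0.19 to 0.20 in the other lungs, while Nkx2-1 was at 0.50 there, within 0.40 to 0.81.

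The partners of single members showed no adjusted and no unadjusted p under 0.05 over all lungs. Of 8 caveola coat genes, Prkcdbp, the cavin that binds protein kinase C, had the largest positive difference, 0.18 (SE 0.10), and Cav2, the partner of Cav1, the largest negative one, -0.17 (SE 0.13), with a median of 0.049. Of 7 podoplanin ligands and partners, Ccl21a, a chemokine that podoplanin binds, was at 0.20 (SE 0.23) and Clec1b, the platelet receptor of podoplanin, at -0.21 (SE 0.22). Of 7 paralogs of the CLIC and EMP families, Emp1 was at 0.27 (SE 0.28) and Clic3 at -0.00075 (SE 0.13). Emp1 had values only in wild-type lungs 1 and 3 and transgenic lungs 1, 2 and 4. Without transgenic lung 1, with 2 lungs left in each genotype, the Emp1 difference was 0.54, with an unadjusted limma p under 0.05. The share of all probes under that p in this fit is not given. Emp3 was the paralog whose groups did not overlap, as was the case for 1.97% of all probes tested. Its difference was 0.16 (SE 0.096, exact permutation p = 0.0286, which is the smallest that 4 against 4 allow, limma adjusted p = 1). Of 10 binding partners of Akap5, the kinase subunit Prkaca was at 0.028 (SE 0.099) and the calcineurin subunit Ppp3ca at -0.12 (SE 0.11).

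The ligands and signaling partners of RAGE were 9 tested of 10, with 4 positive differences and a median of -0.00018. S100a9 and S100a8, RAGE ligands that neutrophils carry in large amounts, had the largest positive differences, 1.04 (SE 0.97) and 0.74 (SE 0.83), and S100b the largest negative one, -0.15 (SE 0.19). S100a9 ratios were -2.45, -3.34, -3.43 and 0.32 in the wild-type and 1.54, -1.44, -1.64 and -3.19 in the transgenic lungs. S100a8 ratios were -2.82, -2.73, -3.55 and -0.32 in the wild-type and 0.69, -1.82, -1.74 and -3.61 in the transgenic lungs. For both, the highest lung was transgenic lung 1, by 3.99 and 3.42 above the median of the others. Wild-type lung 4 came next, and transgenic lung 4 was among the lowest. Without transgenic lung 1 the differences were 0.14 and -0.031.

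Markers of other cell types in transgenic lung 1 moved in both directions beside the members. The mean deviation of 10 type II cell genes was -0.59 there, against -0.38 to 0.89 in the other lungs, with this lung the lowest for 7 of the 10. The airway secretory list of 6 genes was at 0.61, against -1.20 to 0.81, the ciliated list of 7 at 0.49, against -0.20 to 0.22, and the smooth muscle and fibroblast list of 8 at 0.17, against -0.17 to 0.076. The cardiac muscle list of 7, which reads the vein wall and any heart tissue taken along, was at -0.51, against -0.28 to 0.55. The 17 companions were at -0.39, against -0.068 to 0.37, and the 10 regulators at -0.29, against -0.030 to 0.18. The part of these other cell types in the values of the 7 genes was not tested.

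**Figure D5:**
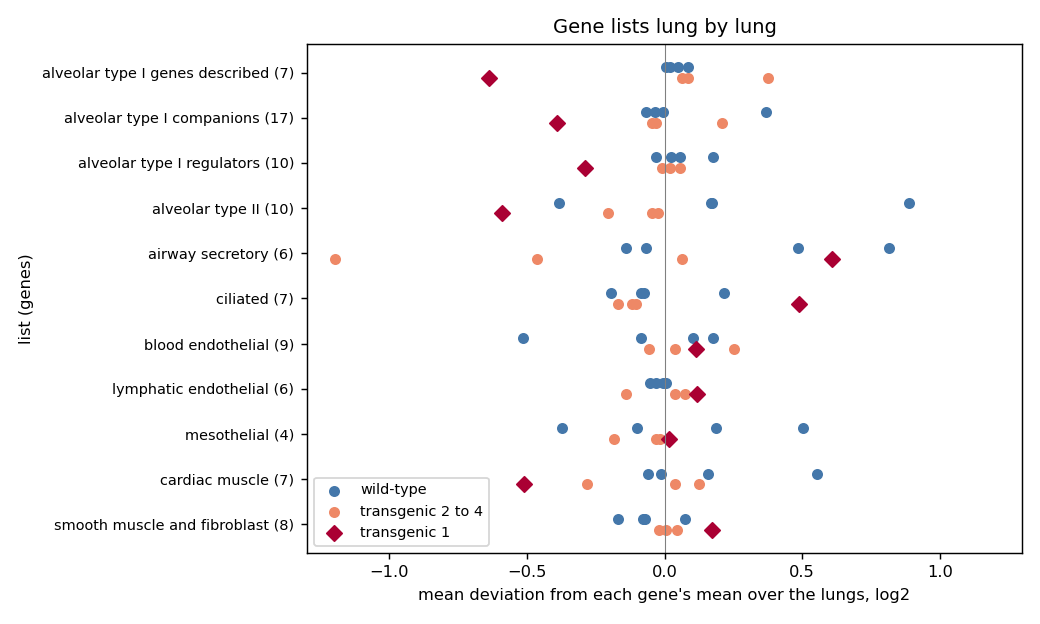
Mean deviation of each gene list from its genes' means over the lungs, on the log2 scale (horizontal axis), for the 7 genes described and 10 other lists (vertical axis, with the number of genes), with 1 point per lung. A point averages the genes with a value in that lung. Transgenic lung 1 (diamonds) is the lowest lung for the 7 genes, the companions, the regulators, type II and cardiac muscle genes, and the highest for ciliated, lymphatic and smooth muscle genes.

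The type II list itself was lower by sign in the transgenic lungs for all 10 genes, against 49.6% of all probes tested. The median difference was -0.49, or -0.33 without transgenic lung 1. An unadjusted p under 0.05 was seen for 3 genes, against 2.09% of all probes, and no adjusted one. The other marker lists had 0 to 2 such genes, with 2 of 7 for cardiac muscle and 2 of 8 for adipose genes. Mean deviations of the list were 0.17, 0.17, 0.89 and -0.38 in wild-type lungs 1 to 4. In transgenic lungs 1 to 4 they were -0.59, -0.023, -0.044 and -0.21, so the genotypes overlapped. Wild-type lung 3 was the highest, and the median difference of the list without it is not given. The 7 type I genes had 4 negative differences and 3 positive, with a median of -0.10, or 0.083 without transgenic lung 1. The difference between the type I and type II lists was not tested.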

How the data were processed

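The 8 lungs, 4 of each genotype, were hybridized to Agilent whole mouse genome arrays with 2 colors. The authors deposited, for each array, raw and processed intensity values from Agilent Feature Extraction (10.10.1.1 in the file headers, 11.0.1.1 in the submitters' processing notes) and log10 ratios of processed Cy5 over Cy3. They also deposited a matrix of log2 ratios with gene symbols, which for probes with a single spot is the processed ratio within 0.001. The array's genome build differs from that of the promoter table, and no coordinates of the array were used.

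Median signals were analysed with limma 3.58.1 (R 4.3.3), and tables were joined with the package data.table at version 1.17.8. The background was corrected with normexp (offset 50, fitted on spots without an outlier flag), control and flagged spots were left out, ratios were loess-normalized within arrays and spots of a probe were averaged. Probes well above background on at least 4 arrays and with at least 2 values per genotype were tested with limma, two-sided, with Benjamini-Hochberg adjustment over all 32653. The number of arrays limits the precision. The genotypes came from the labels, and same-numbered lungs of the genotypes were not treated as pairs. The methods give the age as about the lower end of the labelled range and another kit of the same maker for the RNA. Planned mean signals were replaced by medians, since the files hold no means. Named were Scgb3a2, every member probe, the genes of each pathway list with an unadjusted p under 0.05 or with the largest difference in each direction, and the 5 genes most like the members; Rtkn2, Pxdc1, Timp3, Col4a3, Col4a4, Sec14l3, Lmo7, Yap1, Nkx2-1, Emp3 and S100a8 were added after their values were seen, and a gene was given by its brightest probe. The 7 members, 7 pathway lists and 11 marker lists were chosen with earlier results of these data known. The skeletal muscle and adipose lists were also read. The fit was tested on simulated data. Alternatives (25 planned, 2 added after seeing the data) changed the background correction, normalization, channel, filter, flags, variance model, test, block and probes per gene, or left out single lungs. Python 3.11.15 searched the promoters, and matplotlib 3.10.9 was used for the figures.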

Additional observations from a re-analysis of the deposited data

Results flagged for a closer look

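Among 14 groups of 4 lungs that could be examined, a single lung lay far from the other 3 of its genotype in 2, where chance gives about 1 in 20. Wild-type lung 4 had a log2 ratio of -0.16 on the brighter Clic5 probe, with a gap that took up 0.919 of the range of its genotype, while wild-type lungs 1 to 3 lay between -0.016 and -0.0025. Wild-type lung 4 also had the highest Akap5 ratio of its genotype, 0.56, with a gap of 0.953 of the range. Neither lung value decided a call, since neither gene had one. Transgenic lung 1 did not meet this criterion for any of the probes with 4 transgenic values.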

How the results depend on the processing

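Under all 27 alternatives no member probe passed an adjusted p of 0.05 and no list gene did, no exact test of a member passed 0.05, Scgb3a2 stayed higher in the transgenic lungs (0.73 to 1.11), and the median difference of the 7 genes lay between -0.23 and 0.10, so its sign was not settled. Quantile scaling between arrays leaves the ratios as they are and adds nothing here. The methods' t-test gave 866 probes of 32653 at an unadjusted p under 0.05, without the 1.5-fold criterion that the study set beside it. After Benjamini-Hochberg adjustment it gave 0 probes, with 0 members before or after adjustment. The replicate number as a block left the member median at -0.10 and made 1 interval exclude 0, that of Cav1 (0.54). The slide as a block did the same (1 interval, Cav1 0.54). In both fits transgenic lung 1 had no measured Cav1 partner, so the difference came from lungs 3 and 4 of each genotype. It is thus the same comparison as the 0.54 without transgenic lung 1 and does not repeat it. The share of all probes with such an interval in these fits is not given. Neither block changed an adjusted call of a member or list gene. Same-numbered lungs had deviations correlated at 0.32, 0.25, -0.085 and -0.21 and were not treated as pairs. Numbers 1 and 2, unlike 3 and 4, also share a slide. The companion median lay between -0.19 and 0.029 with 1 lung left out. Leaving out 1 lung gave 0 to 1 such intervals and differences of -0.43 to 0.083 for Ager, -0.23 to 0.082 for Hopx, -0.31 to 0.069 for Clic5, -0.059 to 0.19 for Emp2 and -0.065 to 0.54 for Cav1, with the other sign for the first 3 without transgenic lung 1 and for Emp2 and Cav1 without transgenic lung 4. Cav1 was -0.088 in the authors' matrix, with and without the slide as a block, -0.0084 in the Cy5 channel alone and -0.062 with flagged spots kept. Emp2 was -0.0073 in the Cy5 channel alone, Akap5 -0.076 in the Cy5 channel alone, and Hopx 0.015 with array weights. With flagged spots kept and transgenic lung 1 left out, Ager was 0.10, Hopx 0.10 and Clic5 0.073. The number of correlated pairs at an adjusted p of 0.05 (3) was 0 with processed signals, 12 with median centring, 1 with flagged spots kept, 0 with the mean over a gene's probes, 0 to 3 with 1 lung left out (0 without transgenic lung 1 or 4, 1 without wild-type lung 4) and 0 with flagged spots kept and transgenic lung 1 left out, for which the cause was not tested. With 4 lungs per genotype, the interval for Ager reaches from a fold of 0.539 to 1.27, and true differences within it are compatible with the data. The smallest difference that could be detected was not tested.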

Other observations

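Transgenic lung 4, the lung with the highest ratio for 5 of the 9 probes, was the lowest of the 8 for the 6 airway secretory genes (mean deviation -1.20, others -0.46 to 0.81) and for the 8 adipose genes (-0.78, others -0.19 to 0.50). Its mean deviation was 0.21 for the 17 type I companions, second to 0.37 in wild-type lung 3. Wild-type lung 3, which had the highest mean of the type II genes (0.89), had a mean of 0.0066 for the 7 type I genes. The skeletal muscle list of 7 genes lay between -0.14 and 0.26 over the 8 lungs, with transgenic lung 1 at -0.14.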
